A study of Mus musculus with 23 samples.

Results

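The genes described here are 10 transcription factors that set the naive or memory state of T cells: Tcf7, Lef1, Bach2, Foxo1, Klf2, Tbx21, Eomes, Zeb2, Id2 and Id3. They were taken by symbol from the 32285 genes of each deposited single-cell table, and all 10 were found. Their UMIs (unique molecular identifiers, each standing for 1 captured RNA molecule) were summed over CD8 and CD4 T cells of lymph node (LN) and spleen and compared between wild-type mice and mice carrying a changed Stat5b gene. The labels give all mice as C57BL/6 and 2 months old, and the methods name C57BL/6N for the edited lines. WT mice carried the native STAT5B with tyrosine (Y) at the residue altered here, Y665F mice carried phenylalanine there, and Y665H mice carried histidine. Both changes were knocked into the mouse germline, Y665F with CRISPR/Cas9 and a donor oligonucleotide and Y665H by adenine base editing, so that every cell of the mouse carried them and no transgene or Cre was involved. The LN series held 2 WT libraries, 3 libraries of mice heterozygous for Y665F (het) and 2 of homozygous Y665F mice (homo). The spleen series held 1 library of CD45+ cells for each of WT, Y665F and Y665H, each from pooled mice, and its labels do not give the zygosity. Nothing in the labels says whether LN libraries came from separate mice, so p-values measure only the spread between libraries.

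In lymphocytes STAT5B relays signals from the receptors of IL-2, IL-15 and IL-7 to the nucleus, where it binds DNA and regulates transcription. TCF-1 (from Tcf7), LEF-1, BACH2, FOXO1 and KLF2 maintain naive and central memory T cells, FOXO1 and KLF2 in part through the receptors that keep these cells circulating through lymph nodes. T-bet (from Tbx21), EOMES and ZEB2 drive the effector and memory programs of CD8 T cells, while ID2 and ID3 carry no DNA-binding region of their own and act by holding E proteins away from DNA, ID2 mostly in effector and ID3 mostly in memory precursor cells.

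A T cell was a barcode with at least 200 genes, at most 10% mitochondrial UMIs and at least 1 UMI of a CD3 or T-cell receptor constant gene. It was gated as CD8 when it held Cd8a or Cd8b1 and no Cd4, as CD4 in the opposite case, and was dropped when it held 2 or more UMIs of B cell or of myeloid genes. The LN CD8 gate held 11183 cells, 1045 to 2439 per library, and the CD4 gate 3378 cells, 125 to 935 per library. In spleen the gates held 4933 and 3943 cells. Median UMIs per cell ran from 511 to 3909 over the LN CD8 libraries, with het 3 and homo 1 the shallow ones, and from 6759 to 8671 in spleen. Libraries shared at most 91 barcodes with one another, and at most 12 of these were gated T cells. In the LN CD8 gate neutrophil markers summed to at most 0.26 CPM (counts-per-million, a gene's UMIs scaled to the total UMIs of the gate in its library) and the red cell markers were at 0 in every library. B cell markers summed to 8811 to 12064 CPM in gated LN B cells. Stat5b itself, whose changed base these counts cannot show, stood at 79.6 and 82.0 CPM in the WT libraries of the LN CD8 gate. It was at 58.2 to 70.7 in the Y665F libraries, all below WT, as in 10.8% of all genes tested in this gate. In the LN CD4 gate Stat5b stood at 142 and 139 in WT and 62.4 to 101 in Y665F, with 4 and 5 UMIs behind the shallow libraries. There 7.06% of all genes tested had every Y665F library below both WT libraries.

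All 10 genes have RefSeq transcripts in GRCm38.p6, the assembly behind the mm10 build of the files, and the 250 bases before each transcript start were searched for the STAT element TTCNNNGAA, which reads the same on both strands. Of the 10 genes, 2 held it, Bach2 and Zeb2, against 8.13% of all 27025 genes with such a window. Shown here are the windows of Tbx21 and Eomes, the 2 genes that rose in LN CD8 T cells, and that of Bach2 for its element. Tbx21 lies at chr11:97098071-97115331 on the minus strand and its window at chr11:97115332-97115581. Eomes lies at chr9:118478212-118486132 on the plus strand and its window at chr9:118477939-118478188. Bach2 lies at chr4:32238804-32586108 on the plus strand, and its window, at chr4:32417185-32417434, precedes a RefSeq start inside the gene. No annotated exon overlaps these windows. Each is written 5′ to 3′ on the strand of its gene, with capitals marking the element.
Tbx21: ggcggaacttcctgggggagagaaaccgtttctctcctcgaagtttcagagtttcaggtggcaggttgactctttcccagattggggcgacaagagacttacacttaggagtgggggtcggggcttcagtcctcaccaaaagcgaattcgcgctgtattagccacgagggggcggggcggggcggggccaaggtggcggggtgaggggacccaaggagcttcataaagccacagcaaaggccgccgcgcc
Eomes: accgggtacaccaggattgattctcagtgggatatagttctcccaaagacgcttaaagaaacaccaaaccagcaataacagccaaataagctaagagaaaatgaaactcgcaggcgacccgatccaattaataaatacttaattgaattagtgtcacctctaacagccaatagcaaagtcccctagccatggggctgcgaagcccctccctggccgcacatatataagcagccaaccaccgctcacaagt
Bach2: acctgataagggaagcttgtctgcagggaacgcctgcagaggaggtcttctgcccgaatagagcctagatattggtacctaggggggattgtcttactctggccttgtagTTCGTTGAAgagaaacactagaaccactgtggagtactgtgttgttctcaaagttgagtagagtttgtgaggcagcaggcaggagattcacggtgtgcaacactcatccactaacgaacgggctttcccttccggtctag
The Bach2 element, TTCGTTGAA, starts 140 bases before the transcript start. Neither the Tbx21 nor the Eomes window held these letters, which says nothing of sites elsewhere or of STAT5B binding.

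In LN CD8 T cells the effector factors Tbx21 and Eomes rose with Y665F, and the other members tested did not pass. Of the 10 genes, 9 passed the filter on low counts, and 2 of these rose and 0 fell in homo against WT, where 1.83% of all 9597 genes tested were called. The median log2 fold change of the 9 was 0.01, beside −0.01 for all genes tested. A level summed over a gate cannot tell more cells with a factor from more of its RNA per cell. Tbx21 stood at 24.6 and 13.9 CPM in the WT libraries, at 45.1, 36.9 and 63.8 in the het libraries and at 56.1 and 52.3 in the homo libraries. Every Y665F library was thus above both WT libraries, and het and homo overlapped. In homo against WT the log2 fold change of Tbx21 was 1.68 (SE 0.247, edgeR quasi-likelihood test, Benjamini-Hochberg adjusted p = 0.000295). Eomes stood at 65.4 and 44.8 CPM in WT, 75.2, 66.6 and 86.2 in the het libraries and 95.4 and 87.1 in homo. The groups did not overlap, although het 2 was close to WT 1. Its log2 fold change in homo was 0.83 (SE 0.177, edgeR adjusted p = 0.0116). Among all genes, 5.98% had every Y665F library above both WT libraries, as these 2 members did. These calls depended on single libraries: without WT 2, the lower of the WT libraries in both genes, edgeR gave Tbx21 a log2 fold change of 1.13 (adjusted p = 0.0779) and Eomes 0.47 (adjusted p = 0.425). Without homo 2, which leaves only the shallow homo library and assumes it varies as the other groups do, Tbx21 was at 1.68 (adjusted p = 0.0560) and Eomes at 0.85 (adjusted p = 0.207). DESeq2 called Tbx21 and not Eomes (0.79, adjusted p = 0.118).

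**Figure D1:**
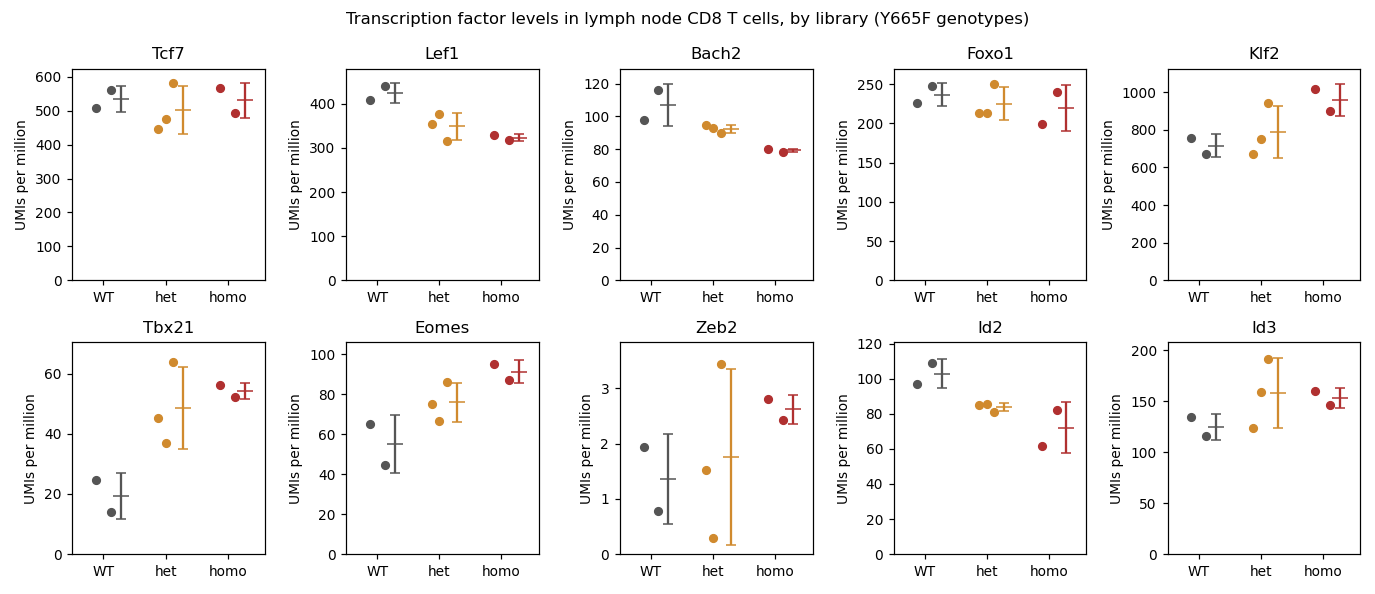
Levels of the 10 factors in gated LN CD8 T cells, in CPM, 1 panel a gene with its own vertical axis from 0. Points are libraries (2 WT, 3 het, 2 homo) and the cross with its bar is the mean ± SD; Tbx21 means are 19.2, 48.6 and 54.2 and those of Lef1 fall below WT in both Y665F groups, while Tcf7 and Foxo1 overlap.

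The factors of the naive state split into a pair that lay lower in Y665F and 3 that overlapped or lay higher. Lef1, the partner of Tcf7 at shared DNA sites, stood at 409 and 440 CPM in WT, 355, 376 and 315 in the het libraries and 330 and 318 in homo. Bach2, a repressor that keeps T cells from effector differentiation, stood at 97.7 and 116 in WT, 94.7, 93.1 and 89.6 in the het libraries and 79.9 and 78.6 in homo. In both genes every Y665F library was below both WT libraries, as in 10.8% of all genes tested, and neither passed: the edgeR log2 fold change in homo was −0.36 for Lef1 (SE 0.129, adjusted p = 0.180) and −0.41 for Bach2 (SE 0.139, adjusted p = 0.159). Tcf7 stood at 507 and 561 CPM in WT, 447, 476 and 581 in the het libraries and 567 and 494 in homo. The 3 groups overlapped, with an edgeR log2 fold change of 0.01 in homo (SE 0.136, adjusted p = 0.989). Foxo1 overlapped as well, at 226 and 247 in WT and 199 and 240 in homo libraries (edgeR −0.04, SE 0.136, adjusted p = 0.935). Klf2, which acts downstream of FOXO1, stood at 759 and 674 in WT, 674, 749 and 944 in the het libraries and 1018 and 900 in homo. The edgeR log2 fold change in homo was 0.45 (SE 0.150, adjusted p = 0.154), and the highest het and homo values were those of the 2 shallow libraries.

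Of the E protein inhibitors, Id2 stood at 97.1 and 109 CPM in WT, 85.0, 85.6 and 81.0 in the het libraries and 61.7 and 82.2 in homo. It was the third member with every Y665F library below both WT libraries, and it did not pass in homo (edgeR log2 −0.40, SE 0.150, adjusted p = 0.196). Id3 stood at 134 and 116 in WT, 123, 159 and 191 in the het libraries and 160 and 146 in homo. The het range of Id3 covered the homo values and reached into WT (edgeR 0.33 in homo, SE 0.163, adjusted p = 0.360). Of the E proteins that ID2 and ID3 bind, Tcf3 and Tcf12 were tested, Tcf4 was too low, and neither passed in homo (edgeR log2 0.07, adjusted p = 0.909, and 0.11, adjusted p = 0.801). Zeb2, which acts with T-bet in terminal effector cells, had only 1 to 12 UMIs per LN CD8 library and was not tested; gated LN B cells of the same libraries, in which Zeb2 is also active, held 17 to 146 UMIs.

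The same WT libraries served the het comparison, so its values are set beside the homo values and are not separate support. In het against WT 1 of the 9 members tested rose and 0 fell, with 1.04% of all genes called: Tbx21 had an edgeR log2 fold change of 1.40 (SE 0.213, adjusted p = 0.000921), which was 0.86 (adjusted p = 0.456) without WT 2. Eomes was at 0.54 in het (SE 0.153, edgeR adjusted p = 0.113), Id3 at 0.32 (adjusted p = 0.490) and Lef1 at −0.22 (adjusted p = 0.576). Between homo and het, edgeR and DESeq2 each called 0 of the 9 members, and 0 had an unadjusted p under 0.05 in either, beside 0.0104% of genes called by edgeR; the difference was 0.28 for Tbx21 (SE 0.192, edgeR adjusted p = 0.884) and 0.28 for Eomes (SE 0.154, adjusted p = 0.828). In a fit of the level on the number of edited alleles, 0, 1 or 2, 2 of 9 members rose and 0 fell, with 2.16% of genes called. The log2 slope per allele was 0.78 for Tbx21 (SE 0.141, edgeR adjusted p = 0.00183) and 0.42 for Eomes (SE 0.0869, adjusted p = 0.00627), and without WT 2 these were 0.46 (adjusted p = 0.143) and 0.25 (adjusted p = 0.307). The slope of Klf2 was 0.23 (adjusted p = 0.102) and that of Bach2 −0.19 (adjusted p = 0.141).

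Genes of the pathways these factors act on were counted in the same fit. Of 24 memory and effector products, 21 were tested and 12 rose in homo LN CD8 T cells, with 0 lower and a median log2 fold change of 1.36. This count and median include Ifng and S1pr5, which passed the low-count filter only through Y665F libraries. Among those called were genes of higher level. They included the chemokine Ccl5 (3.39), the granzyme Gzmm (2.69), Ccr2 (2.06) and Il18r1 (1.58). Ifng was called with 4 and 28 UMIs in the WT libraries and 17 and 92 in homo. It passed the low-count filter through the Y665F libraries, so no fold is given. S1pr5, a receptor for exit from tissue that T-bet is known to promote, was also called. It had 2 and 0 UMIs in the WT libraries and 3 and 15 in homo and passed the low-count filter through homo alone, so no fold is given. The list summed to 2182 and 2442 CPM in the WT libraries, to between 3772 and 4705 in het and to between 5720 and 6039 in homo libraries. Much of this rise was Ccl5 alone, at 269 and 207 CPM in WT, 965 to 1658 in het and 2042 and 2786 in homo libraries. Of the naive homing and survival genes, Ccr7, S1pr1 and Il7r did not pass, with the lymph node homing receptor Ccr7 at an edgeR log2 fold change of −0.17 (adjusted p = 0.622). Of 8 other naive-state genes 1 fell, the gut homing receptor Ccr9 (−1.75). Of 23 other T-cell transcription factors tested 1 rose, Klf3 (0.54, edgeR adjusted p = 0.0438). Of 7 STAT5 target genes tested 2 rose, Pim1 (1.05), a survival kinase, and Bcl2 (0.95), which protects T cells from death.

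Markers of other cells in the LN CD8 gate partly moved with genotype. Regulatory T cell markers summed to 85.4 and 115 CPM in WT, 78.1 to 102 in het and 93.2 and 102 in homo libraries. Of 5 tested 0 passed in homo, and 1 was lower in the slope per edited allele. Myeloid markers, of which 0 of 1 passed in homo, summed to 92.2 and 97.7 in WT, 94.4 to 121 in het and 109 and 118 in homo libraries. Gamma-delta T cell markers summed to 4.45 and 8.41 CPM in WT, 5.17 to 10.4 in het and 15.8 and 18.2 in homo libraries, and 1 of their 2 tested genes was called (Tcrg-C1). Tcrg-C1 had 0 and 3 UMIs in WT and 9 and 17 in homo and, like S1pr5, passed the low-count filter through homo alone, and in the slope per edited allele only 1 gene of this list was tested and 0 passed by edgeR. Natural killer cell markers summed to 6.55 and 19.4 in WT, 14.1 to 39.6 in het and 16.8 and 19.0 in homo libraries, with the defining receptor Ncr1 at 0 in every het and homo library. Of 3 tested 1 was called, Klre1, which had 6 and 7 UMIs in WT and 8 and 36 in homo and passed the low-count filter through the Y665F libraries alone. B cell markers, of which 0 of 4 passed, summed to 212 and 225 in WT, 231 to 279 in het and 240 and 273 in homo libraries, so that every Y665F library was above both WT libraries. CD4 helper markers summed to 75.1 and 90.1 in WT, 81.8 to 87.7 in het and 84.7 and 92.6 in homo libraries, and of 3 tested Tnfsf8 rose (0.73) and Izumo1r fell (−1.03). Handling stress genes, of which 0 of 9 passed, summed to 2467 and 3163 in WT, 2426 to 2816 in het and 3119 and 3223 in homo libraries. In the slope per edited allele 1 of 9 rose by edgeR, Ier2, at 191 and 249 CPM in WT and 331 and 290 in homo. The part of these cells and genes in the Tbx21 and Eomes values was not tested.

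The share of cells with a UMI of Ccl5, a chemokine that memory CD8 T cells store as RNA, moved with genotype. The factors were therefore also measured within cells that held or lacked a Ccl5 UMI. Such a share cannot tell more memory-like cells from more Ccl5 RNA per cell. The share of LN CD8 T cells with a Ccl5 UMI was 7.96% and 7.05% in WT, 36.2%, 27.3% and 29.9% in the het libraries and 39.3% and 47.9% in homo. The groups did not overlap, and the means of 7.51%, 31.1% and 43.6% followed the order of alleles (Jonckheere-Terpstra statistic over 7 libraries, exact permutation test, two-sided, p = 0.00952, the smallest p this design allows). With each cell thinned to 300 UMIs the means were 3.25%, 17.9% and 31.3%. In gated LN B cells, which should lack Ccl5, the share was at most 0.987%, at median depths of 297 to 1941 UMIs per cell.

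Cells with a Ccl5 UMI differed from cells without one, within libraries, in 6 of the 9 members tested, 2 higher and 4 lower, beside 15.7% of all 8960 genes called. Tbx21 stood at 63.1 to 121 CPM in cells with Ccl5 and at 9.19 to 34.0 in cells without it over the 7 libraries. No library overlapped between the 2 sets of cells, and the log2 difference was 2.75 (SE 0.123, edgeR adjusted p = 2.72e-50). Eomes followed at 1.42 (SE 0.0877, adjusted p = 3.71e-34), from 34.7 to 71.5 CPM in cells without Ccl5 to 110 to 177 in cells with it. Lower in cells with Ccl5 were Bach2 by −0.84 (SE 0.0865, edgeR adjusted p = 3.96e-16), Lef1 by −0.66 (SE 0.0483, adjusted p = 6.09e-27), Foxo1 by −0.36 (SE 0.0555, adjusted p = 2.29e-08) and Tcf7 by −0.14 (SE 0.0414, adjusted p = 0.00582). The Tcf7 call was lost under DESeq2 (adjusted p = 0.0970), with at least 500 genes per cell (edgeR adjusted p = 0.0734) and without het 1 (−0.11, adjusted p = 0.215). Id3 was at 0.17 (edgeR adjusted p = 0.0710), Id2 at −0.17 (adjusted p = 0.172), and Klf2 did not differ detectably (0.00, SE 0.0357, adjusted p = 0.989), with 120 to 2159 UMIs per library behind it in the smaller set. Over 16 alternatives Id3 passed in 4 (log2 0.12 to 0.27, adjusted p from 0.0011 to 0.546) and Id2 in 1 (−0.26 to −0.08, adjusted p from 0.0435 to 0.657). The naive homing and survival genes did not move one way here: Ccr7 was lower (−0.79) and S1pr1 lower (−0.24), while Il7r (0.44) was higher in cells with Ccl5.

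**Figure D2:**
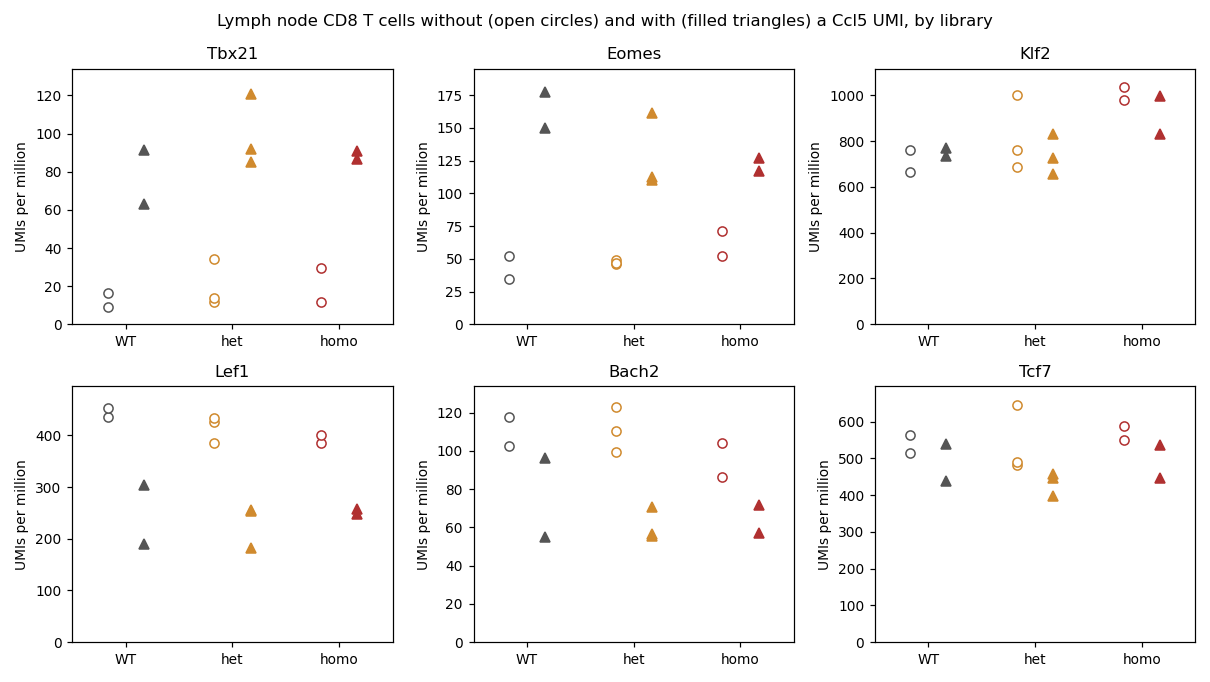
Levels of 6 factors in gated LN CD8 T cells, in CPM, with open circles for cells without and filled triangles for cells with a Ccl5 UMI; each of the 7 libraries gives 1 of each. Tbx21 and Eomes triangles lie above the circles in every library and Lef1 triangles below them, while Klf2 mixes.

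Within either set of cells, no member passed between homo and WT. In cells with a Ccl5 UMI edgeR and DESeq2 called 0 of 9 members (0 at an unadjusted p under 0.05 in each), beside 0.0792% of all genes tested. Tbx21 there was at 91.6 and 63.1 CPM in WT, 92.1, 84.9 and 121 in the het libraries and 91.1 and 86.9 in homo, so that the genotypes overlapped (edgeR log2 0.30, SE 0.278, adjusted p = 0.837). Eomes was at 177 and 150 in WT, 112, 110 and 161 in the het libraries and 127 and 117 in homo (−0.40, SE 0.222, edgeR adjusted p = 0.716). In cells without a Ccl5 UMI edgeR and DESeq2 again called 0 of 9, beside 0.239% of genes called by edgeR after adjustment. At an unadjusted p under 0.05 there were 4 members by edgeR and 1 by DESeq2. The share of all genes at that looser limit is not given, so these counts have no background. These 4 were Klf2 (0.51, edgeR adjusted p = 0.244), Id3 (0.45, adjusted p = 0.418), Eomes (0.53, adjusted p = 0.480) and Id2 (−0.37, adjusted p = 0.528). Tbx21 without Ccl5 rested on 12 to 54 UMIs per library, at 16.6 and 9.19 CPM in WT and 29.6 and 11.5 in homo libraries, which overlapped (0.55, SE 0.466, adjusted p = 0.758).

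A level made from the WT values of each set of cells and each library's own share of UMIs in cells with Ccl5 was set beside the level observed. For Tbx21 it was 37.7 and 44.4 CPM in the homo libraries, where 56.1 and 52.3 were observed. In the het libraries it was 36.7, 31.0 and 32.2, where 45.1, 36.9 and 63.8 were observed. The widest gaps were those of the shallow libraries, het 3 and homo 1, and the part of depth was not tested. For Eomes the level made in this way was 91.1 and 104 in homo, where 95.4 and 87.1 were observed. Lef1 came to 369 and 349 (observed 330 and 318) and Bach2 to 100.3 and 96.8 (observed 79.9 and 78.6). Klf2 came to 720 and 727 (observed 1018 and 900), Id2 to 102 and 101 (observed 61.7 and 82.2) and Id3 to 131 and 134 (observed 160 and 146). For Tcf7 (531 and 527) and Foxo1 (214 and 205) the observed levels lay on both sides. These are descriptions of the split and rest on the same WT libraries.

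In LN CD4 T cells the member that moved was Klf2. Tbx21, Eomes and Zeb2 had 0 to 6 UMIs per library there and were not tested, and of the 7 members tested 1 rose and 0 fell in homo against WT, beside 0.539% of all 6684 genes called. Their median log2 fold change was 0.02. Klf2 stood at 563 and 508 CPM in WT, 641, 695 and 905 in the het libraries and 843 and 1057 in homo. Every Y665F library lay above both WT libraries, which held for 2.83% of all genes, and 0 of 7 members lay below in every Y665F library, against 7.06% of genes. The Klf2 log2 fold change was 0.93 in homo (SE 0.17, edgeR adjusted p = 0.00151) and 0.45 in het (SE 0.149, adjusted p = 0.330). In het 0 of 7 members were called by edgeR or DESeq2, beside 0.374% of genes called by edgeR. At an unadjusted p under 0.05, for which no share of genes is given, there was 1 in each. Between homo and het edgeR and DESeq2 called 0 of 7, beside 0.0449% of genes called by edgeR. Klf2 was the 1 at an unadjusted p under 0.05 by edgeR, with 0 by DESeq2. The slope per edited allele of Klf2 was 0.47 (SE 0.0838, edgeR adjusted p = 0.000806), the 1 of 7 members called there, beside 0.814% of genes.

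The CD4 call for Klf2 depended on single libraries and on the test. The homo difference was 0.46 (edgeR adjusted p = 0.784) without homo 2, 0.80 (adjusted p = 0.0537) without WT 2, 0.76 (adjusted p = 0.887) with at least 500 genes per cell, and 0.90 under DESeq2 (adjusted p = 0.301). In het the highest Klf2 level was again that of the shallow library, which had 133 CD4 cells; without both shallow libraries, which leaves homo 2 alone and assumes it varies as the other groups do, the homo difference was 1.07 (edgeR adjusted p = 0.000472). In gated LN B cells, fitted in the same way, Klf2 stood at 818 and 753 CPM in WT, 990, 1095 and 1011 in the het libraries and 1133 and 1181 in homo. Every Y665F library was above both WT libraries, as in 4 of the 7 members tested there and 4.04% of all genes. There the log2 fold change was 0.57 (SE 0.145, unadjusted p = 0.00156, edgeR adjusted p = 0.352). In B cells 0 of 7 members passed by edgeR or DESeq2, beside 0.011% of genes called by edgeR. At an unadjusted p under 0.05, for which no share of genes is given, there were 2 in each. The slope of Klf2 per edited allele in B cells was 0.29 by edgeR (SE 0.0715, adjusted p = 0.284), where 0 of 7 members passed beside 0.0114% of genes, and 0.29 by DESeq2 (adjusted p = 0.00204), which called Klf2 alone of the 7 beside 0.171% of genes. Handling stress genes in the CD4 gate summed to 3395 and 4114 CPM in WT, 3476 to 3744 in het and 4661 and 4802 in homo libraries. Of 8 tested 1 rose, Ier2 (0.71), an immediate early gene, and 1 was called lower, the heat shock gene Hsph1 (−1.11), both by edgeR. Hsph1 set het 3 and both homo libraries apart from the other 4 in each gate: they held 46.8 to 72.4 CPM against 121 to 159 in CD4, 53.4 to 99.7 against 120 to 147 in CD8 and 29.1 to 61.6 against 102 to 125 in B cells, from 3 UMIs in each shallow CD4 library. Klf2 divided the libraries in the same way in CD4 (843 to 1057 against 508 to 695) and CD8 (900 to 1018 against 674 to 759) and not in B cells. In CD8, Tbx21 (52.3 to 63.8 against 13.9 to 45.1) and Eomes (86.2 to 95.4 against 44.8 to 75.2) did so too. Lef1 (315 to 330 against 355 to 440), Bach2 (78.6 to 89.6 against 93.1 to 116) and Id2 (61.7 to 82.2 against 85.0 to 109) were also divided so in CD8. Tcf7, Foxo1 and Id3 were not. Ier2, Fos and Jun were not divided so in CD8 either. The share of all genes divided in this way was not counted. Both homo libraries lay on the same side, so the division cannot be told apart from genotype. The part of this division in the CD8 values was not tested. B cell markers in the CD4 gate summed to 187 and 219 CPM in WT, 238 to 406 in het and 283 and 344 in homo libraries. The 1 of them tested, Ighm, was at 0.68 in homo (edgeR adjusted p = 0.0889) and passed in the slope (0.36 per allele, adjusted p = 0.0298), while Cd79a and Ms4a1 were at 0 in both homo libraries. CD4 helper markers summed to 396 and 444 in WT, 302 to 326 in het and 155 and 224 in homo libraries, and 1 of 3 fell, Izumo1r (−1.23). Natural killer cell markers, too low to be tested, summed to 7.50 and 48.9 in WT, to at most 0.69 in het and to 0 in both homo libraries. The part of these genes in the Klf2 difference was not tested.

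**Figure D3:**
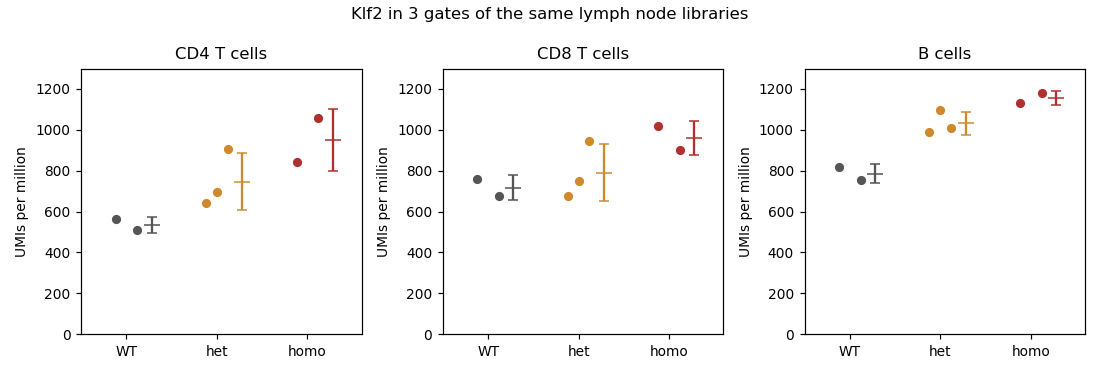
Klf2 in gated CD4 T, CD8 T and B cells of the 7 LN libraries, in CPM, with points for libraries and a cross with its bar for the mean ± SD. CD4 means are 536 in WT, 747 in het and 950 in homo libraries.

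The other members did not pass in LN CD4 T cells. In homo against WT edgeR gave log2 fold changes of 0.29 for Foxo1 (adjusted p = 0.705), 0.24 for Id2 (adjusted p = 0.855), 0.02 for Lef1 (adjusted p = 0.988), −0.05 for Bach2 (adjusted p = 0.979), −0.09 for Tcf7 (adjusted p = 0.932) and −0.11 for Id3 (adjusted p = 0.942). Lef1 differed between the homo libraries, at 361 CPM in the shallow one, from 21 UMIs, and 566 in the other, with WT at 540 and 517. Of the naive homing and survival genes that KLF2 and FOXO1 are known to act on, Ccr7, S1pr1 and Il7r did not pass, with S1pr1 at 0.58 (edgeR adjusted p = 0.195). Of 7 other naive-state genes tested 2 rose, Dapl1 (1.71) and Igfbp4 (0.89), and 0 of 9 memory and effector products, 0 of 19 other transcription factors and 0 of 2 E proteins passed. Of 6 STAT5 target genes 1 rose, Pim1 (1.23).

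Regulatory T cells were part of the CD4 gate, so CD4 cells with a Foxp3 UMI were compared with those without one. There were 223 such cells in 7 libraries, only 6 and 2 of them in the shallow libraries. Of 7 members tested 4 were lower and 0 higher in cells with Foxp3, beside 9.39% of the 2129 genes tested. Tcf7 was lower by −1.71 (SE 0.213, edgeR adjusted p = 9.63e-14) and Lef1 by −1.74 (SE 0.224, adjusted p = 7.41e-13). Id2, at −1.14 (adjusted p = 0.00521), and Bach2, at −0.83 (adjusted p = 0.00816), also fell, while Klf2 was at −0.41 (edgeR adjusted p = 0.159), Foxo1 at −0.23 (adjusted p = 0.573) and Id3 at 0.25 (adjusted p = 0.565). DESeq2 called 2 of these 4, and leaving out het 1, which held the most CD4 cells with Foxp3, left 2. Of 7 STAT5 target genes tested, 5 were higher and 0 lower in cells with Foxp3 by edgeR. Without the Foxp3 cells the homo difference of Klf2 in the CD4 gate was 0.91 (edgeR adjusted p = 0.00409).

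Whether the homo effect differed between the gates was tested directly, with CD8 and CD4 sums of the same libraries in 1 fit. Of 9 members 1 passed, beside 0.344% of 9018 genes: for Klf2 the homo effect in CD8 minus that in CD4 was −0.52 on the log2 scale (SE 0.119, edgeR adjusted p = 0.00677). This call was lost under DESeq2 (−0.49, adjusted p = 0.554), with at least 500 genes per cell (−0.50, edgeR adjusted p = 0.954) and without WT 1, WT 2 or het 2 (−0.49, −0.53 and −0.48; adjusted p = 0.156, 0.355 and 0.163), and without homo 2 the value was 0.07 (adjusted p = 0.961). Lef1 was at −0.41 (SE 0.140, edgeR adjusted p = 0.284), reached −0.53 (adjusted p = 0.0121) without both shallow libraries and stood at 0.37 (adjusted p = 0.886) without homo 2. For Tbx21 (1.22, SE 1.22) and Eomes (1.03, SE 1.56) the CD4 gate held too few UMIs, 0 to 6 per library, to set the difference.

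In spleen 1 library a genotype allows no test, and the ratios have intervals for counting error only, 95% and exact. No member passed a log2 ratio of 1 in CD8 T cells of Y665F against WT, where 3.43% of the 10454 genes with at least 50 UMIs did, and the median over all these genes was −0.16. Zeb2 came nearest, at 32.1 CPM in WT and 63.0 in Y665F (log2 0.97, interval 0.80 to 1.14), and Tbx21 went from 17.1 to 29.5 (0.79, 0.55 to 1.03). On the other side Lef1 went from 624 to 326 (−0.94, −0.99 to −0.89) and Id3 from 48.1 to 27.3 (−0.82, −0.997 to −0.634). Foxo1 was at −0.58, Tcf7 at −0.39, Bach2 at −0.30, Klf2 at 0.00, Eomes at 0.02 and Id2 at 0.26, all in log2 of Y665F over WT. Zeb2 passed 1 in the stricter gate and when ribosomal, mitochondrial and receptor genes were left out of the totals. Of the 24 memory and effector products 7 passed 1 upward, with a median of 0.71, and of the 8 STAT5 target genes 3 did, with a median of 0.93; neutrophil markers in the gate summed to 67.8 CPM in WT and 346 in Y665F. Of 11 handling stress genes 2 passed 1 upward and 1 downward. Gamma-delta T cell markers summed to 24.2 CPM in WT and 34.4 in Y665F (2 of 3 past 1 upward), B cell markers to 318 and 231 (3 of 5 past 1 downward) and plasma cell markers to 82.4 and 22.7 (2 of 2 downward). Of 5 natural killer cell markers Ncr1 passed 1 downward, and of 4 myeloid markers Lyz2 passed 1 upward. The part of these cells in the ratios was not tested.

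The spleen CD8 gate also differed in its share of Ccl5-rich cells. Because 11.03% to 16.5% of gated spleen B cells held a Ccl5 UMI, the limit was set at 5 UMIs, which at most 0.667% of B cells reached, at median depths of 3766 to 3853 UMIs. Such cells were 18.7% of CD8 T cells in WT, 18.0% in Y665H and 61.6% in Y665F. In WT they held more Zeb2 (141 against 3.48 CPM), Tbx21 (61.4 against 5.43), Eomes (155 against 49.0) and Id2 (195 against 96.6) than the other CD8 T cells, and less Lef1 (289 against 712). The limit was not scaled to depth, and median UMIs per Ccl5-rich cell were 7918 in WT and 9195 in Y665F. Ccl5 itself stood at 1259 CPM in the whole WT gate and 4435 in that of Y665F. The part of depth and of the Ccl5 level in the values of these cells was not tested. Within the Ccl5-rich cells the Y665F ratios of Zeb2 and Tbx21 turned: Zeb2 was at −0.54 (−0.71 to −0.36; 141 in WT and 97.0 in Y665F) and Tbx21 at −0.54 (−0.80 to −0.27; 61.4 and 42.3), against a median of −0.20 over all genes in these cells. Eomes was at −0.74 there (−0.91 to −0.57; 155 and 92.4), Lef1 at −0.29 (−0.41 to −0.17; 289 and 236) and Id3 at −1.36 (−1.64 to −1.08; 68.0 and 26.5). The interval of Lef1 held the median of all genes. Id3 was the 1 member past a log2 ratio of 1, beside 3.06% of the 9169 genes. Within the remaining cells, where the median of all genes was −0.15, Lef1 was at −0.54 (−0.60 to −0.48), Id3 at −0.57 (−0.84 to −0.30) and Eomes at −0.48 (−0.73 to −0.24), and Tbx21, from 53 and 36 UMIs, at 0.23 (−0.42 to 0.87). Zeb2 rested on 34 and 8 UMIs there, under the 50 set for the count of genes past 1, at −1.30 (−2.62 to −0.16). Foxo1 was at −0.30 in Ccl5-rich and −0.43 in the remaining cells, and Tcf7 at −0.21 and −0.30. Tcf7, Lef1, Foxo1 and Id3 were thus below WT in the whole gate and in both of its parts, as was the median gene. The middle 50% of genes lay between −0.39 and −0.01 in Ccl5-rich and between −0.32 and 0.03 in the remaining cells. Tcf7 was inside this range in both parts, Lef1 and Foxo1 in Ccl5-rich cells only, and Id3 in neither. Tbx21 and Zeb2 were above WT in the whole gate and below it in Ccl5-rich cells. So was Id2, at 195 CPM in WT and 168 in Y665F there and 96.6 and 87.9 in the remaining cells. In the same order Bach2 went from 53.6 to 53.1 and from 93.7 to 99.2, and Klf2 from 663 to 653 and from 626 to 601.

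**Figure D4:**
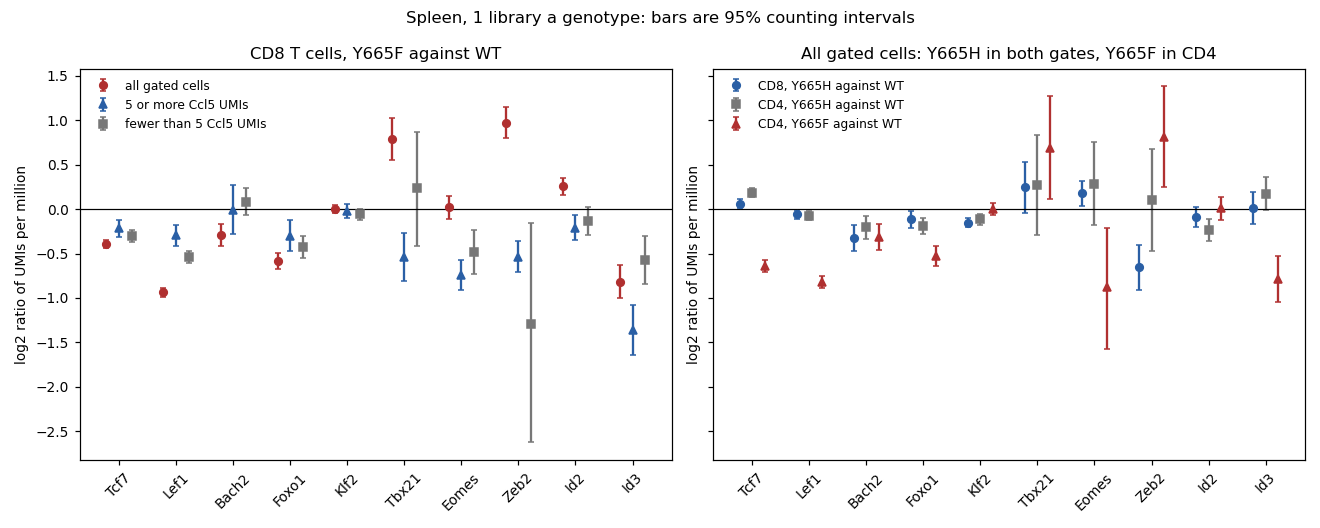
Log2 ratio of CPM to WT in gated spleen T cells, 1 library a genotype, with bars for the 95% counting interval. On the left, Y665F CD8 T cells in all, with 5 or more and with fewer than 5 Ccl5 UMIs, where Zeb2 and Tbx21 lie above 0 in all cells and below it in Ccl5-rich cells; on the right, Y665H in both gates and Y665F in CD4, where Lef1 in Y665F CD4 is at −0.82.

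In Y665H CD8 T cells of the spleen 0 of 10 members passed a log2 ratio of 1, beside 0.95% of genes. Zeb2 was lowest, at 20.4 CPM against 32.1 in WT (−0.66, −0.91 to −0.40), Bach2 was at −0.32 (−0.47 to −0.18), Klf2 at −0.15 (−0.20 to −0.10) and Eomes at 0.18 (0.04 to 0.32), with the remaining 6 between −0.11 and 0.24. Zeb2 passed −1 in the stricter gate and when cells with any UMI of other cell types were left out. Red cell markers in this gate summed to 1734 CPM in Y665H against 11.9 in WT and 2.39 in Y665F, and neutrophil markers to 476. Of 11 handling stress genes 2 passed 1 upward, Hspa1a and Hspa1b. The part of these genes in the Y665H CD8 ratios was not tested.

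In spleen CD4 T cells 0 of 10 members passed a log2 ratio of 1 in Y665F, beside 3.04% of genes, or in Y665H, beside 1.02%. The median over all genes was −0.12 in Y665F, with the middle 50% of genes between −0.31 and 0.07. Lef1 went from 715 to 405 CPM (−0.82, −0.89 to −0.75), Tcf7 from 664.6 to 428 (−0.63, −0.70 to −0.57) and Foxo1 from 234 to 162 (−0.53, −0.64 to −0.42). Id3 was at −0.78 (−1.04 to −0.53), Bach2 at −0.31 (−0.46 to −0.16), Id2 at 0.01 and Klf2 at 0.00, the last with 529 CPM in each genotype. Tbx21, Eomes and Zeb2 rested on 27 to 70 UMIs per library. Without cells holding a Foxp3 UMI the ratios were −0.72 for Lef1, −0.49 for Tcf7, −0.59 for Foxo1 and −0.96 for Id3, and Zeb2, from 48 and 62 UMIs, was the 1 member past 1, at 1.07 (0.50 to 1.64), beside 2.77% of genes. Cells with a Foxp3 UMI were 8.74% of the 1431 CD4 T cells in WT and 20.4% of the 913 in Y665F, and Treg markers, 5 of 5 past 1 upward, summed to 326 and 766 CPM. Of 11 handling stress genes 3 passed 1 upward (Fosb, Hspa1a and Hspa1b). Neutrophil markers summed to 24.96 and 326 CPM, plasma cell markers to 84.7 and 22.1 (2 of 2 past 1 downward), B cell markers to 294 and 291 (3 of 4 downward) and gamma-delta T cell markers to 11.8 and 20.4 (of 2, Tcrg-C1 upward and Trdc downward). The part of these cells in the ratios was not tested. Of the 8 STAT5 target genes 6 passed 1 upward, among them Il2ra, which is also counted with the Treg markers. The part of the larger share of Foxp3 cells in this count was not tested. In Y665H the CD4 ratios lay between −0.24 (Id2) and 0.28 (Eomes), with Tcf7 at 0.18 (0.13 to 0.23). Neutrophil markers in the Y665H CD4 gate summed to 435 CPM and red cell markers to 178, the latter against 9.58 in WT. Of 11 handling stress genes 2 passed 1 upward there, Hspa1a and Hspa1b. The part of these genes in the Y665H CD4 ratios was not tested. The spleen and LN tables carry different Cell Ranger versions in their headers, and no value was compared across the tissues.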

How the data were processed

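Single-cell expression libraries, 7 of lymph node and 3 of spleen, were analysed, and T-cell receptor and bone marrow libraries were not used here. The authors deposited filtered matrices of whole-number UMI counts per gene and cell, not normalized, and the submitters' processing notes name Cell Ranger 5.0, Seurat 4.0 and the mm10 build. The labels name a 3′ kit, while the methods name a 5′ kit used with a 5′ T-cell receptor kit. The LN series holds receptor libraries titled to match its expression libraries. Labels and methods thus differ on which end of the transcripts was read. The 10 genes, the gene lists and the tests were chosen with earlier results of these data known.

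Counts were summed per library over gated cells (Python 3.11.15) and levels given as CPM, UMIs scaled to the gate's total in each library. LN sums were fitted across all genes with the edgeR 4.0.16 quasi-likelihood test (TMM, filterByExpr, no replicate block), with Benjamini-Hochberg adjustment over all genes tested and a limit of 0.05, in R 4.3.3. DESeq2 1.42.0 was the alternative test. The splits by Ccl5 and Foxp3 and the test between gates had the library as a block. The fits were tested on simulated data. No doublet caller was run, and leaving out the top 5% of cells by UMIs stood in for one. Spleen ratios are of 2 libraries and compare those libraries. Intervals cover counting error only. All 10 genes were named, and from each other list the genes that passed in homo against WT, up to 6 by size of change, or the highest 2 where none passed. A gene of the naive homing and survival list that this rule names is not reported here. Promoter windows are from RefSeq (GRCm38.p6), gene positions from the GENCODE annotation of the same build.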

Additional observations from a re-analysis of the deposited data

Results flagged for a closer look

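One result differed between the gates by a test of the difference itself. The homo effect on Klf2 in LN CD8 T cells minus that in CD4 T cells was −0.52 on the log2 scale (SE 0.119, edgeR adjusted p = 0.00677), with the homo effect at 0.45 in CD8 and 0.93 in CD4. It turned on homo 2, without which it was 0.07 (adjusted p = 0.961), and over all alternatives the adjusted p of Klf2 ran from 9.95e-07 to 0.961. Groups of 1 to 3 libraries are too small for a test of single outlying libraries, and none was made.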

How the results depend on the processing

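The counts of members called by edgeR changed as follows. In LN CD8 T cells homo against WT had 2 members called and DESeq2 1, het against WT 1 and 2 (Eomes added) with no filter on low counts; leaving out 1 library at a time gave 0 to 2 in homo, 0 to 2 in het and 0 to 2 for the slope. In LN CD4 T cells the 1 member called in homo became 0 under DESeq2 and with at least 500 genes per barcode, which also took the slope to 0, and leaving out libraries gave 0 to 1 in both. The 1 difference between gates became 0 under DESeq2 and with at least 500 genes, 2 without both shallow libraries, and 0 to 1 with single libraries left out. The Foxp3 split had 4 called, 2 under DESeq2, 2 without the top 5% of UMIs, and 2 to 5 with libraries left out. In spleen, where 0 members passed a log2 ratio of 1, 1 passed in CD8 Y665F in the strict gate, 1 without ribosomal, mitochondrial and receptor genes and 1 in cells with 5 or more Ccl5 UMIs; 1 passed in CD8 Y665H in the strict gate and 1 with no UMI of other cell types; and 1, Zeb2, passed in CD4 Y665F without Foxp3 cells. The counts in the Ccl5 split (5 to 7) and within its 2 sets of cells (0) moved by less than 1.5 times, and the Ccl5 share difference of 36.1 points ran from 31.8 to 40.4 with single libraries left out (exact permutation p from 0.0222 to 0.0333, the smallest those designs allow). The cause of these shifts was not tested.

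Directions that turned were mostly those of values near 0. In CD8 homo, Tcf7 was −0.045 in the strict gate, −0.0057 without the top 5% of UMIs and −0.032 without both shallow libraries (−0.048 to 0.064 with single libraries left out), and Foxo1 was 0.030 with at least 500 genes and 0.10 without both shallow libraries (−0.27 to 0.085). In CD4 homo, Lef1 was −0.048 under DESeq2, −0.025 with no filter, −0.0090 with at least 500 genes and −0.0015 without Foxp3 cells (−0.74 to 0.19), Bach2 was 0.057 in the strict gate, Id2 ran from −0.010 to 0.34 and Foxo1 from −0.040 to 0.37 with single libraries left out. In the Ccl5 split Klf2 was 0.0028 with DESeq2 size factors, 0.0067 under DESeq2, 0.035 with at least 500 genes, 0.010 with no UMI of other cell types, 0.040 without the top 5%, 0.0039 without ribosomal, mitochondrial and receptor genes and 0.014 without both shallow libraries (−0.029 to 0.038). With single libraries left out, homo Tbx21 ran from −0.028 to 1.33 in cells without and from −0.053 to 0.52 in cells with Ccl5, lowest without WT 2, and the gate difference from −0.62 to 0.070 for Klf2 and from −0.52 to 0.37 for Lef1, highest without homo 2.

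Replicate numbers are shared between LN groups. Deviations of same-numbered libraries from their group means had correlations of −0.106 to 0.0643 over 9597 genes in CD8 and −0.0465 to 0.0318 in CD4. In a group of 2 libraries these deviations mirror each other, and counting error adds to them. The correlations therefore cannot decide whether the numbers pair the libraries. With a replicate block the counts of members called were 2 in CD8 homo, 1 in CD8 het and 1 in CD4 homo, as without it, and Lef1 in CD4 homo was −0.018. The block could not be added to the splits and the gate test, where each library is already a block, and at least 500 genes per barcode could not be fitted for the Foxp3 split, which left libraries almost without UMIs. The B cell fit and the spleen Ccl5 parts were added after seeing the data. Too few UMIs were counted to test Tbx21, Eomes and Zeb2 in LN CD4 T cells and Zeb2 in LN CD8 T cells. The parts of depth and of low level in this were not tested.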
